A study of Bos taurus with 16 samples.

Results

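Knockdown of Creb5 in bovine superficial zone articular chondrocytes held in both TGF-α and TGF-β2 was examined by RNA-Seq in 8 of the 16 libraries of the series, chosen by their labels: 4 with a control shRNA (shScramble) and 4 with an shRNA against Creb5 (shCreb5), a library of each from the same 4 calves. The cells came from the top layer of knee cartilage of calves 1 to 2 weeks old. Both groups were grown for 2 days, infected with lentivirus carrying the shRNA, held for 5 days in puromycin at 0.8 µg/ml, and then moved for 48 h to low-attachment plastic in medium with serum, 100 ng/ml TGF-α and 20 ng/ml TGF-β2, which is condition AB. The other 8 libraries came from cells of the same calves and shRNAs in 100 ng/ml TGF-α without TGF-β2, condition A. Every library, control or not, thus came from infected, puromycin-selected cells that received TGF-α. A single shRNA against Creb5 was used, so effects of the loss of Creb5 and of that hairpin on other transcripts cannot be told apart.

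Creb5 is a basic leucine zipper transcription factor of the CREB/ATF family. In articular cartilage the superficial zone is the layer that faces the joint space, and its cells secrete lubricin, the product of Prg4, which keeps the surface smooth. TGF-β binds paired type I and type II receptor kinases that phosphorylate SMAD proteins, and TGF-α activates the EGF receptor and, through it, the ERK kinases. The question asked of these libraries was which genes depend on Creb5 when both signals are present, beyond lubricin and the 7 signaling genes that the study names. Those 7 are WIF1, GDF10, FAT1, FAT4, EPHA3, HBEGF and TGFBR1. The study named them from this same knockdown, citing its results in both conditions, so their values below restate its choice.

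Total counts in the 8 libraries were between 14710867 and 21696674, with 15323 to 16095 genes detected. Of the 19454 genes counted, 3142 had a symbol at hand, so the remainder are given by Ensembl identifier or in counts alone. Expression is given in CPM, which divides each count by its library total after adjustment with TMM factors, always in the order of calves 1 to 4 where 4 values follow each other. Some cartilage transcripts were at high levels. In the shScramble libraries PRG4 was between 13088 and 55139 CPM. COL11A1, a collagen chain of cartilage fibrils, was between 2048 and 11682 CPM there. HAPLN1, the link protein that fixes aggrecan to hyaluronan, was between 1728 and 5869 CPM. Of 10 chondrocyte markers listed, COL11A1, HAPLN1 and CHAD were the 3 that could be identified. CHAD was far lower than the others, between 21.4 and 83.0 CPM with shScramble. COL3A1, a collagen chain of fibrous tissue, had a mean of 8612 CPM with shScramble. Calf 2 stood apart in both of its libraries. It had the lowest PRG4 (13088 and 5987 CPM) and the highest COL11A1 (11682 and 14074 CPM).

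CREB5 (ENSBTAG00000018909), the target, had 78.5, 55.7, 58.8 and 74.2 CPM with shScramble and 40.8, 34.0, 29.0 and 33.1 CPM with shCreb5. The groups did not overlap, and the transcript fell in every calf. How many of all tested genes had groups without overlap was not counted, so such statements, here and below, only describe the gene. The log2 fold change was -0.96 (standard error 0.10), a 1.94-fold reduction, with an adjusted p of 1.02e-08 from DESeq2 and of 0.124 from edgeR's quasi-likelihood test. In a culture of mixed cells, fewer cells that make a transcript and less of it per cell cannot be told apart, here and in every result that follows.

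PRG4 (ENSBTAG00000011932), which encodes lubricin, had 55139, 13088, 54856 and 42210 CPM with shScramble and 23771, 5987, 54540 and 35105 CPM with shCreb5. It was lower by more than 1 on the log2 scale in calves 1 and 2 (-1.21 and -1.13), by less in calf 4 (-0.27), and nearly equal in calf 3 (-0.0083). With the libraries of condition A included in the scaling, the ratio of calf 3 was 0.00066, so that its sign turned. The log2 fold change was -0.65 (standard error 0.23), with an adjusted p of 0.302 from DESeq2 and 0.584 from edgeR. The reduction did not pass either test. CLU, the chaperone clusterin, also a superficial zone transcript, was lower in 4 of 4 calves, at 4220 ± 1697 CPM with shScramble and 3118 ± 1153 with shCreb5 (SD, n = 4), without passing (DESeq2 adjusted p = 0.404). CD44, the hyaluronan receptor, was at 255 ± 45.5 and 329 ± 123 CPM (DESeq2 adjusted p = 0.849). Of 12 superficial zone genes listed, 7 were identified, 6 were tested, and CREB5 alone among them passed DESeq2.

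Across all genes, DESeq2 with the calf as a covariate, the test the study used, called 55 of 13188 genes (0.417%) at an adjusted p under 0.05. Of these, 41 were lower with shCreb5 (0.311%) and 14 higher (0.106%). Each of the 55 had the same direction in 4 of 4 calves and an unadjusted p under 0.05 in edgeR's quasi-likelihood test. That test, adjusted over 12664 genes, called 0 of them (0%), the smallest adjusted p being 0.124, while 1078 genes (8.51%) had an unadjusted p under 0.05, 566 lower (4.47%) and 512 higher (4.04%). Hereafter "fell" and "rose" are used for genes called by DESeq2, and none of them passed edgeR's adjusted threshold. Reductions were more numerous among the larger changes. Among genes with a single direction over all 4 calves and a log2 fold change beyond 1 either way, 65 were lower (0.513% of those tested) and 22 higher (0.174%). With no size limit, 1181 were lower (9.33%) and 1163 higher (9.18%) in 4 of 4 calves.

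**Figure D1:**
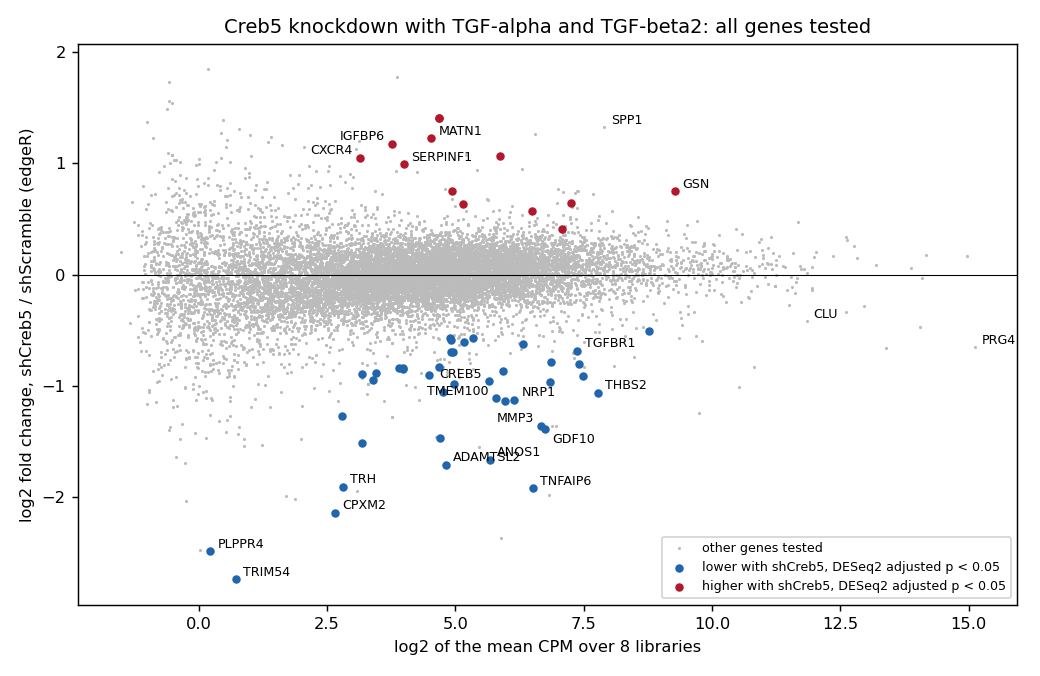
Each point is a gene tested in condition AB, at the log2 of its mean CPM over the 8 libraries (x axis) and its log2 fold change of shCreb5 over shScramble from edgeR (y axis). Blue points are the 41 genes that fell and red points the higher genes called by DESeq2, except ENSBTAG00000038155, which had 0 counts in every shScramble library and is left out. The called genes below 0 reach -2.74, those above 0 reach 1.41.

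The calls depended on the calves. Leaving out calf 1 gave 156 calls, leaving out calf 2 gave 40, calf 3 gave 43 and calf 4 gave 32. Of the 55 genes, 22 were called whichever calf was left out, 19 lower and 3 higher. Among these 3 higher genes, 2 (ENSBTAG00000026417 and ENSBTAG00000026418) had identical counts in every library, so they carry a single measurement. The 17 of the lower genes that have symbols were TRIM54, CPXM2, TRH, TNFAIP6, ADAMTSL2, ANOS1, PDZD2, GDF10, MMP3, GAS1, NRP1, TMEM100, CA2, LRP8, CREB5, PALMD and TGFBR1, and the higher genes had none. PLPPR4, PLAT, RERG, SDC1, HHIPL1, DSP, WARS1 and ENSBTAG00000009359 were not called in any of the 4 fits with 3 calves. CXCR4, PDGFRB, TMTC2, LAPTM5, C1R, CILP2, GCLC, PPP1R37, GPRC5B, P3H2 and SEMA3D were called without calf 1 but not without any other calf. Calls were lost without calf 3 and without calf 4 for PTPRT, SERPINF1, IGFBP6 and CLEC3A, without calf 3 for THBS2 and GSN, without calf 2 for MATN1, and without calf 1 for ENSBTAG00000038155. The call was lost without any calf but calf 3 for CGNL1 and PDGFD, without any but calf 2 for ERO1A, without calves 2 or 4 for SDK1, without calves 2 or 3 for WIF1 and without calves 1 or 2 for HEG1.

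Components of TGF-β and BMP signaling were among the genes that fell, 3 of the 23 that could be identified out of 45 listed. They were a receptor and a ligand of the BMP family, both named by the study (TGFBR1 and GDF10), and a membrane protein. Altogether 10 of the 23 were lower and 1 higher at an unadjusted p under 0.05. Genes with a symbol are not a fair sample, since symbols were at hand mostly for genes with small p-values: 31.7% of the 3068 tested genes with a symbol had an unadjusted p under 0.05, 16.6% lower and 15.2% higher. That share, and not 8.51%, is the background for the unadjusted counts of every list. For DESeq2 calls the background is 48 of these 3068 genes, 38 lower and 10 higher. The members without an identifier were not analysed here.

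TGFBR1 (ENSBTAG00000018035), the type I receptor kinase for TGF-β, had 240, 103, 229 and 252 CPM with shScramble and 130, 72.4, 159 and 143 CPM with shCreb5. Calf 2 was the lowest in both groups, and the receptor fell in each calf by a log2 fold change of -0.68 (standard error 0.11, DESeq2 adjusted p = 0.000275). TMEM100 (ENSBTAG00000009292), a small membrane protein known as a target of BMP receptor signaling in endothelium, had 73.7, 63.6, 101 and 62.3 CPM with shScramble and 31.8, 35.9, 47.3 and 24.9 with shCreb5. Its groups did not overlap, and it had the smallest edgeR p of all the genes named here (unadjusted p = 1.58e-05), with a log2 fold change of -1.11 and a DESeq2 adjusted p of 7.78e-11. GDF10 (ENSBTAG00000001019), a secreted factor of the BMP family, went from 172, 88.8, 183 and 157 CPM to 129, 42.2, 56.5 and 30.3 CPM. Its reduction was small in calf 1 and large in calf 4, with a log2 fold change of -1.38 over all calves (DESeq2 adjusted p = 0.000157). BMP4, a ligand of the same family, was at 34.9 ± 19.8 and 23.8 ± 18.5 CPM (SD, n = 4), lower in 4 of 4 calves, without passing (DESeq2 adjusted p = 0.119). LTBP1, which holds latent TGF-β in the matrix and had the highest mean CPM of the list over the 8 libraries (not scaled to gene length), was at 754 ± 326 and 606 ± 386 CPM, lower in 3 of 4 calves (DESeq2 adjusted p = 0.684).

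Matrix-degrading enzymes and their relatives included MMP3, the gene with the smallest DESeq2 adjusted p. Of 15 proteases, inhibitors and related proteins tested, 7 were lower and 1 higher at an unadjusted p under 0.05, and 5 passed DESeq2. MMP3 (ENSBTAG00000037768), stromelysin 1, which cleaves proteoglycans and other matrix proteins, had 65.6, 188, 170 and 166 CPM with shScramble and 35.1, 61.1, 70.5 and 54.4 CPM with shCreb5. Calf 1 was low in both groups, and the fall was seen in every calf, with a log2 fold change of -1.36 (standard error 0.14) and a DESeq2 adjusted p of 8.24e-13.

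ADAMTSL2 and CPXM2, which also fell, belong to protease families but are not active proteases. ADAMTSL2 (ENSBTAG00000007492), a secreted glycoprotein that binds fibrillin and LTBP1, went from 78.3, 21.6, 24 and 41.2 CPM to 38.1, 6.84, 7.63 and 6.71 CPM, with a log2 fold change of -1.71 (DESeq2 adjusted p = 4.42e-09). Calf 1 kept a level with shCreb5 that was within the range of the shScramble libraries. CPXM2 (ENSBTAG00000018941), a carboxypeptidase-like protein, had 7.87, 7.77, 14.8 and 10.2 CPM with shScramble and 3.91, 1.37, 3.00 and 1.22 with shCreb5. These groups did not overlap, and the log2 fold change was -2.14 (DESeq2 adjusted p = 2.32e-07). PLAT, tissue plasminogen activator, fell from 37.5 ± 19.3 to 24.1 ± 16.6 CPM (SD, n = 4), by 0.70 on the log2 scale. SERPINF1, the secreted serpin known as pigment epithelium-derived factor, was the member that rose, from 16.3, 2.46, 11.4 and 10.9 CPM to 23.9, 3.19, 33.8 and 26.3 CPM, with a log2 fold change of 0.99 (DESeq2 adjusted p = 0.0179). HTRA1, a secreted serine protease, was at 789 ± 321 and 1051 ± 615 CPM, higher in calves 3 and 4 and lower in calves 1 and 2.

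**Figure D2:**
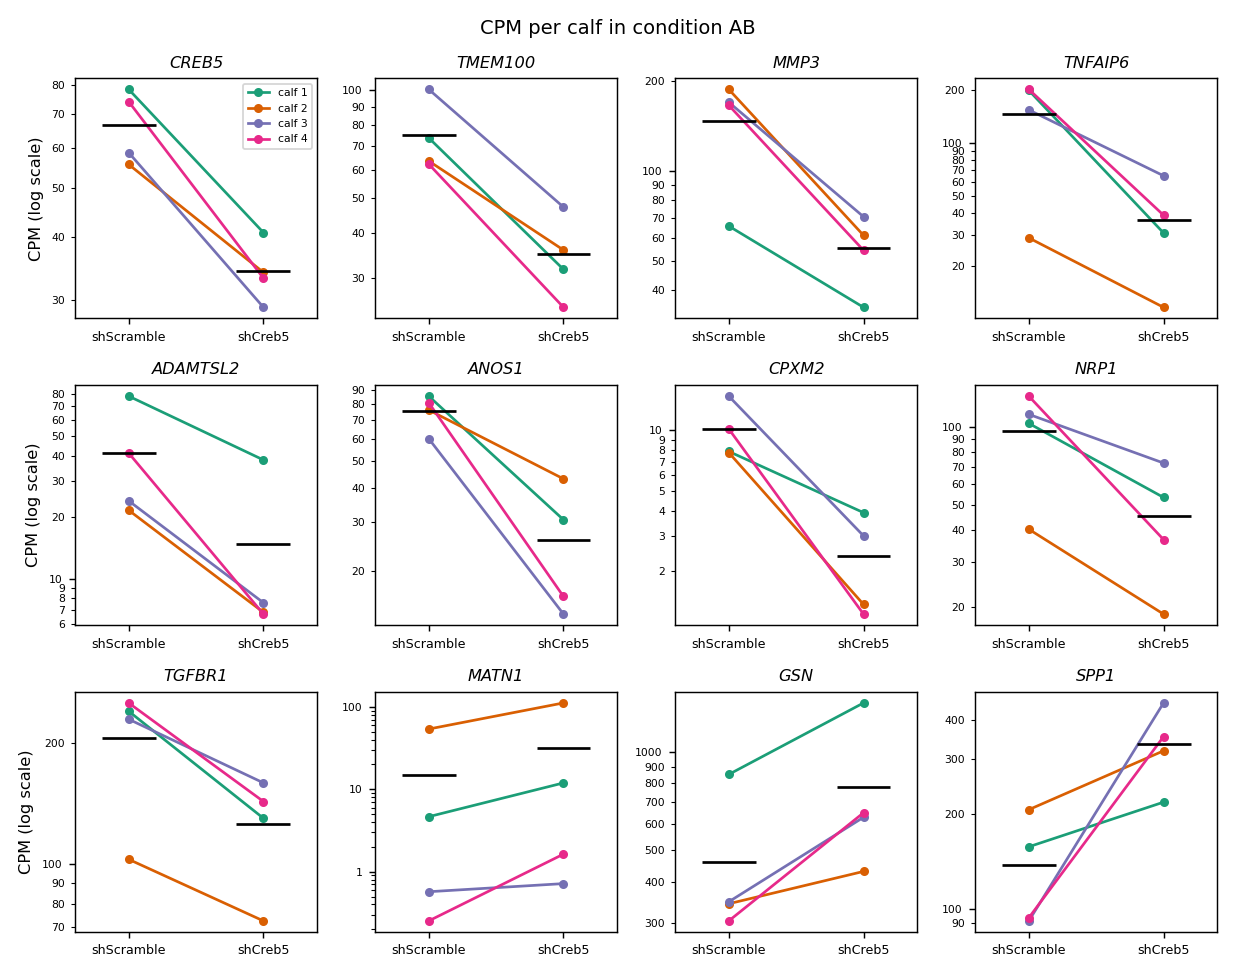
CPM on a log axis for 12 genes, with the shScramble and shCreb5 libraries of each calf joined by a line and the mean of the 4 calves as a black bar. CREB5, TMEM100, ANOS1, CPXM2 and SPP1 are the genes shown whose groups do not overlap, and in MATN1 the calves lie further apart than the shRNAs. The share of genes without overlap among all tested was not counted.

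Inflammation genes were more often lower than higher. Of 15 tested, 8 were lower and 2 higher at an unadjusted p under 0.05, and 3 passed DESeq2. TNFAIP6 (ENSBTAG00000007239), also called TSG-6, a hyaluronan-binding protein made in response to inflammatory cytokines, had 199, 28.8, 154 and 202 CPM with shScramble and 30.7, 11.6, 65.0 and 38.7 CPM with shCreb5. Calf 2 was far below the others before and after knockdown, yet its reduction was of similar size to that of calf 3. The log2 fold change was -1.92 (standard error 0.27, DESeq2 adjusted p = 1.82e-10). C1R, a protease of the first complement component, fell from 146 ± 64.9 to 87.7 ± 50.3 CPM (SD, n = 4), with a log2 fold change of -0.79. Its partner C1S was at 413 ± 238 and 323 ± 244 CPM and did not pass (DESeq2 adjusted p = 0.76). IL6, a cytokine, was lower in 4 of 4 calves by a small amount, 39.2 ± 37.8 against 29.8 ± 28.6 CPM (DESeq2 adjusted p = 0.469). CXCR4, the receptor for the chemokine CXCL12, rose from 4.16, 16.5, 1.77 and 2.02 CPM to 5.41, 28.2, 4.37 and 8.28 CPM, with a log2 fold change of 1.05 (DESeq2 adjusted p = 0.0431). Calf 2 was above the others with either shRNA. CXCR4 was not called without calf 2, nor without calf 3 or calf 4.

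Genes of the cartilage matrix moved in both directions. Of 7 tested out of 25 listed, 3 were lower and 1 higher at an unadjusted p under 0.05. CLEC3A (ENSBTAG00000046772), a C-type lectin of cartilage, fell from 1.12, 19.1, 19.6 and 13.5 CPM to 0.91, 11.9, 4.24 and 2.45 CPM, with a log2 fold change of -1.52 (DESeq2 adjusted p = 0.0176). Calf 1 hardly expressed it with either shRNA. CILP2, a secreted protein of the cartilage intermediate layer family, fell from 227 ± 65.2 to 132 ± 71.7 CPM (SD, n = 4), with a log2 fold change of -0.91 that was -0.58 without calf 4 (DESeq2 adjusted p = 0.0495 with all calves). CHAD, chondroadherin, was lower in 3 of 4 calves and did not pass (DESeq2 adjusted p = 0.419). MATN1 (ENSBTAG00000003479), matrilin 1, a filament-forming protein of non-articular and growth plate cartilage, rose from 4.65, 53.8, 0.571 and 0.253 CPM to 11.9, 112, 0.717 and 1.63 CPM. The log2 fold change was 1.23 (DESeq2 adjusted p = 0.000416), and the fewest counts were 4 in a library, while calf 2 alone held most of the transcript. MATN1 was not called without calf 2. COL11A1 and HAPLN1 were at 5434 ± 4298 and 7076 ± 5360 CPM, and at 2832 ± 2026 and 3310 ± 2425 CPM, and neither passed.

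Matrix genes of fibrous tissue stayed mostly below the threshold. Of 15 tested, 1 was lower and 1 higher at an unadjusted p under 0.05. THBS2 (ENSBTAG00000018810), thrombospondin 2, a matricellular protein, went from 237, 168, 337 and 454 CPM to 213, 84.1, 135 and 133 CPM, with a log2 fold change of -1.06 (DESeq2 adjusted p = 0.0023). It barely moved in calf 1, and it was not called without calf 3. POSTN, periostin, was at 131 ± 90.9 and 206 ± 135 CPM (SD, n = 4) and THY1, a surface marker of fibroblasts, at 136.2 ± 63.0 and 273 ± 189 CPM. Both were higher in 3 of 4 calves without passing (DESeq2 adjusted p = 0.125 and 0.872). COL3A1, a fibrillar collagen chain, was at 8612 ± 861 and 7297 ± 1974 CPM, and COL6A1 at 5756 ± 1981 and 6919 ± 1078 CPM. Of 14 genes of hypertrophy and bone, 2 were identified. SPP1, osteopontin, had 158, 207, 91.5 and 93.6 CPM with shScramble and 219, 318, 452 and 353 CPM with shCreb5. The groups did not overlap, and the log2 fold change was 1.32 (standard error 0.32), but SPP1 did not pass (DESeq2 adjusted p = 0.277, edgeR adjusted p = 0.584). DMP1, a protein of mineralized matrix, was at 12.2 ± 5.64 and 9.96 ± 3.04 CPM.

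Guidance molecules and growth factor receptors gave 6 calls among 20 tested genes, 5 lower and 1 higher. At an unadjusted p under 0.05, 9 were lower and 1 higher. NRP1 (ENSBTAG00000019866), neuropilin 1, a co-receptor for class 3 semaphorins and VEGF, had 103, 40.1, 112 and 132 CPM with shScramble and 53.3, 18.8, 72.4 and 36.6 CPM with shCreb5, with a log2 fold change of -1.13 (DESeq2 adjusted p = 4.50e-05). SEMA3D, one of the class 3 semaphorins, fell from 42.3 ± 16 to 29.3 ± 17.2 CPM (SD, n = 4), and SEMA3C, another of them, was at 483 ± 170 and 494 ± 120 CPM. PDGFD, a platelet-derived growth factor, and PDGFRB, the receptor it binds, both fell. PDGFD went from 17.3, 7.47, 18.9 and 10.1 CPM to 9.26, 3.85, 13.7 and 3.38 CPM, with a log2 fold change of -0.94. PDGFRB went from 37.1, 13.3, 51.6 and 41.7 CPM to 28.7, 7.86, 33.1 and 27.2 CPM, with a log2 fold change of -0.59. PTPRT, a receptor tyrosine phosphatase, had 1.83, 2.11, 12.3 and 23.8 CPM with shScramble and 0.964, 0.963, 5.21 and 8.17 with shCreb5, with a log2 fold change of -1.27 (DESeq2 adjusted p = 0.000381). Calves 3 and 4 expressed it more than calves 1 and 2, and it was not called without either of the former. EPHA3, an ephrin receptor, was lower in 4 of 4 calves, from 31.3, 3.59, 3.38 and 10.8 CPM to 17.5, 1.12, 3.00 and 6.65 CPM, without passing (DESeq2 adjusted p = 0.212). IGFBP6, which binds insulin-like growth factors, was the member that rose, from 13.7, 7.37, 5.35 and 6.38 CPM to 18.9, 12, 13.1 and 32.3 CPM, with a log2 fold change of 1.18 (DESeq2 adjusted p = 0.0218).

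ANOS1 and LRP8 act in cell guidance too, though they were not in that list. ANOS1 (ENSBTAG00000001049), anosmin 1, a secreted matrix protein, had 85.3, 76.0, 60.0 and 80.8 CPM with shScramble and 30.6, 43.0, 14 and 16.2 CPM with shCreb5. Its groups did not overlap, and the log2 fold change was -1.66 (standard error 0.24, DESeq2 adjusted p = 4.63e-09). LRP8, a receptor for reelin, fell from 66.0, 23.8, 26.8 and 52.8 CPM to 23.3, 16.5, 13.9 and 27.8 CPM, with a log2 fold change of -0.98 (DESeq2 adjusted p = 0.000275).

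In the Wnt list, 5 of 10 tested genes were lower at an unadjusted p under 0.05 and 0 higher. WIF1, which the study names, alone passed DESeq2. WIF1, a secreted Wnt inhibitor, had 255, 183, 171 and 227 CPM with shScramble and 198, 118, 54.4 and 149 with shCreb5, with a log2 fold change of -0.81 that was -0.53 without calf 3. ROR1 and ROR2, receptors for Wnt proteins, were lower in 4 of 4 calves without passing, with log2 fold changes of -0.52 and -0.45, the latter (ROR2) -0.28 without calf 3. NKD1, an inhibitor inside the cell, had a log2 fold change of -0.56 (DESeq2 adjusted p = 0.684). In the Hippo list, 3 of 10 genes were lower at an unadjusted p under 0.05 and 0 passed DESeq2. These were FAT1 and FAT4, giant cadherins that the study names, with log2 fold changes of -0.25 and -0.55. The other was CCN2, a matricellular target of YAP, with -0.39. Without calf 4, FAT4 was at -0.36 and CCN2 at -0.25. MOB1A, a kinase co-factor of the pathway, had 0.35, or 0.20 without calf 3. In the EGFR and ERK list, 2 of 13 were lower and 1 higher at an unadjusted p under 0.05, and 0 passed DESeq2. HBEGF, a ligand of the EGF receptor, had 19.3, 4.57, 6.65 and 6.95 CPM with shScramble and 3.75, 2.64, 5.15 and 3.62 CPM with shCreb5. Its log2 fold change of -1.14 was -0.69 without calf 1. PHLDA1, an immediate early gene of ERK signaling, had a log2 fold change of -0.29, ERRFI1, a feedback inhibitor of the EGF receptor, -0.24, or -0.15 without calf 2, and CCND1, cyclin D1, 0.61, or 0.32 without calf 4.

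Of 5 basic leucine zipper genes identified among 33, CREB5 alone had an unadjusted p under 0.05. CREB1 was at 16.4 ± 3.23 and 14.8 ± 3.33 CPM (SD, n = 4), ATF1 at 55.0 ± 6.63 and 67.8 ± 24 CPM, and MAF at 8.28 ± 3.59 and 5.76 ± 0.464 CPM. In the cAMP list, 3 of 9 tested genes were lower at an unadjusted p under 0.05, and 0 passed DESeq2. PDE7A, a phosphodiesterase that degrades cAMP, PENK, the enkephalin precursor and a known CREB target, and CRTC3, a CREB co-activator, had log2 fold changes of -0.61, -1.01 and -0.42 (DESeq2 adjusted p = 0.116, 0.0855 and 0.734), that of CRTC3 being -0.28 without calf 4. PDE3A and PDE4B, further phosphodiesterases, had -0.24 and -0.19, with PDE3A between -0.38 and -0.16 and PDE4B between -0.37 and -0.021 when a calf was left out.

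The genes with the lowest ratios outside these lists had low counts. TRIM54 (ENSBTAG00000018267), a RING finger protein of striated muscle, had 3.40, 0.492, 4.78 and 2.65 CPM with shScramble and 0.107, 0.0507, 1.04 and 0.642 with shCreb5, from 1 to 92 counts per library, and a log2 fold change of -2.74 (standard error 0.45, DESeq2 adjusted p = 0.000428). PLPPR4, a membrane protein related to phospholipid phosphatases, had 0 to 98 counts and a log2 fold change of -2.49 (DESeq2 adjusted p = 0.0133). TRH, the precursor of thyrotropin-releasing hormone, fell from 14, 5.11, 17.9 and 6.83 CPM to 3.69, 2.08, 5.54 and 0.817 CPM, with a log2 fold change of -1.91 (DESeq2 adjusted p = 1.94e-07). In TRH the highest shCreb5 library, that of calf 3, was just above the lowest shScramble library, that of calf 2.

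PDZD2, a protein with many PDZ domains, fell from 12.5, 39.1, 41.8 and 63.7 CPM to 9.64, 15.8, 14.9 and 9.97 CPM, with a log2 fold change of -1.47 (DESeq2 adjusted p = 0.00074). GAS1, a surface protein that binds Hedgehog ligands, fell from 82.6, 37.0, 93.0 and 126 CPM to 60.0, 16.5, 55.4 and 26.8 CPM (log2 fold change -1.14). CA2, a cytosolic carbonic anhydrase, fell from 58.9, 22.8, 29.2 and 36.2 CPM to 15.4, 12, 14.9 and 27.3 CPM (log2 fold change -1.06). In CA2 the order of the calves was turned, the reduction being largest in calf 1 and smallest in calf 4. Of the 18 lower genes with a symbol that the naming rule passed over for their smaller size, 10 were in no list, and they are named here after their values were seen: RERG, CGNL1, PALMD, TMTC2, HEG1, GPRC5B, SDK1, PPP1R37, SDC1 and HHIPL1, with edgeR log2 fold changes from -0.89 for RERG to -0.57 for HHIPL1. The 3 lower genes without a symbol were ENSBTAG00000002912 (-0.97), ENSBTAG00000046308 (-0.90) and ENSBTAG00000009359 (-0.50). In ENSBTAG00000046308 the groups did not overlap. In ENSBTAG00000009359 the lowest shScramble and the highest shCreb5 library were nearly equal (460.7 and 460.3 CPM).

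**Figure D3:**
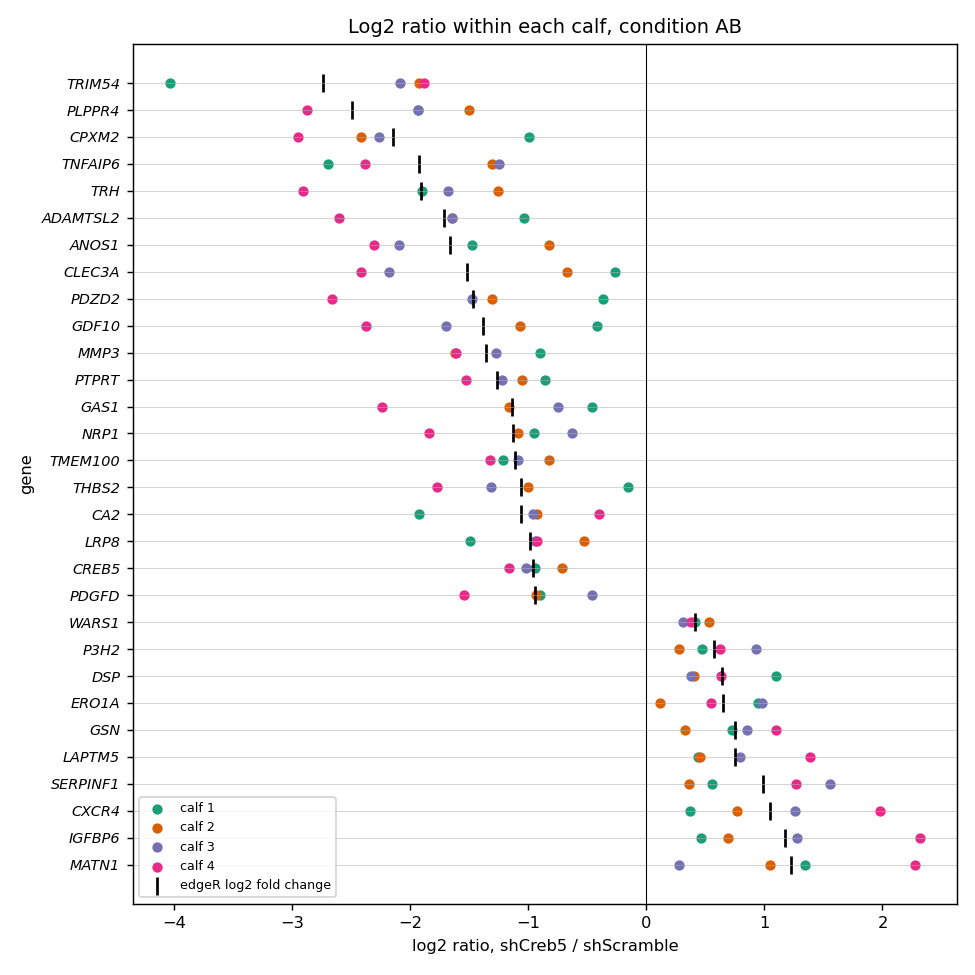
Log2 ratio of shCreb5 over shScramble within each calf (x axis) for the 20 lower and 10 higher genes with symbols named by size, 1 coloured point per calf, with edgeR's log2 fold change as a black bar. Points of every gene lie on the same side of 0, and calf 4 is often the farthest from it, while in CLEC3A and THBS2 calf 1 lies close to 0 (-0.27 and -0.15).

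Of the 14 genes that rose, 10 had symbols, and 7 of the 14 reached 1 on the log2 scale, as did 17 of the 41 that fell. GSN (ENSBTAG00000019915), gelsolin, which severs and caps actin filaments, had the highest CPM of the 14, going from 852, 344, 348 and 305 CPM to 1407, 431, 630 and 651 CPM, with a log2 fold change of 0.75 (standard error 0.14, DESeq2 adjusted p = 0.000467). The libraries of calf 1 were the highest with either shRNA. It was not called without calf 3. P3H2, which hydroxylates prolines of collagen, rose from 106, 95.9, 30.7 and 66.4 CPM to 146, 116, 58.5 and 103 CPM (log2 fold change 0.57, DESeq2 adjusted p = 0.0378). DSP, desmoplakin, a protein of desmosomes, rose from 27.2 ± 13.5 to 43.3 ± 21.8 CPM (SD, n = 4). ERO1A, an oxidase that forms disulfide bonds in the endoplasmic reticulum, rose from 153, 115, 86.0 and 110 CPM to 294, 124, 170 and 161 CPM (log2 fold change 0.65). WARS1, tryptophanyl-tRNA synthetase, had the smallest rise, from 188, 128, 45.7 and 97.2 CPM to 250, 185, 56.8 and 126 CPM, with a log2 fold change of 0.41 with a spread between calves of 0.31 to 0.53 in the log2 ratios.

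The remaining genes that rose had no symbol. ENSBTAG00000004013 went from 25.9, 26.2, 63.5 and 30.8 CPM to 40.5, 46.7, 121 and 113 CPM, with a log2 fold change of 1.07 (DESeq2 adjusted p = 0.000275). ENSBTAG00000026417 and ENSBTAG00000026418 had identical counts in every library, so they carry a single measurement, from 30.5, 16.6, 0.883 and 1.96 CPM to 119.5, 27.3, 2.41 and 5.66 CPM. Their shared log2 fold change was 1.41, and counted once they would leave 13 genes that rose. Both are also counted among the 7 that reached 1 on the log2 scale. ENSBTAG00000038155 had 0 counts in every shScramble library, which allows up to 3 counts each, and 11, 16, 15 and 20 counts in the shCreb5 libraries of calves 1 to 4. Set against that limit within each calf, it was at least 4.52-fold higher.

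Among stress, interferon and cell cycle genes, DESeq2 called 2 of 7, 1 of 4 and 0 of 12 tested. Of 7 stress genes, ERO1A rose and GCLC, which makes the first step of glutathione synthesis, fell from 98.1 ± 32.5 to 61.9 ± 10.8 CPM (SD, n = 4). HSPH1 and NQO1 were at 19.6 ± 3.16 and 25.6 ± 6.41 CPM, and at 45.2 ± 21.4 and 62.1 ± 32.9 CPM, and HSPA5, the chaperone BiP, at 655 ± 107 and 811 ± 330 CPM, none of them past the threshold. Of 4 interferon-response genes, WARS1 rose, and IFIT1 was at 14.6 ± 11 and 19.9 ± 13.1 CPM, MX2 at 2.99 ± 3.48 and 1.04 ± 0.773, and IFIT5 at 98.4 ± 24.7 and 125 ± 43.9. Of 12 cell cycle genes, 0 had an unadjusted p under 0.05. MKI67, the proliferation marker, was at 243 ± 109 and 213 ± 89.4 CPM, RRM2 at 58.9 ± 20.9 and 51.6 ± 30.5, TYMS at 53.4 ± 12.2 and 50.8 ± 15, and BUB1 at 40 ± 14.2 and 38.5 ± 19.1.

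Of 23 markers of other cell types, 6 could be identified, and their summed level was between 37.7 and 109 CPM in the shScramble libraries and between 38.2 and 127 CPM in the shCreb5 libraries, highest in calf 2 with both. None of the 6 was at 0 counts in any library. LAPTM5, a lysosomal protein of leukocytes with the highest mean CPM of the 6 over the 8 libraries, rose from 10.0, 66.0, 13.1 and 7.77 CPM to 13.6, 90.5, 22.7 and 20.5 CPM, with a log2 fold change of 0.75 (DESeq2 adjusted p = 0.0308). CD14, a monocyte marker, was lower in 4 of 4 calves, at 19.3 ± 7.25 and 14.6 ± 4.48 CPM (SD, n = 4), without passing, and TEK, an endothelial receptor, and FABP4, a fat marker, were below 10 CPM in every library. CXCR4 and MATN1 were, like LAPTM5, highest in calf 2. The part of these cells in the results was not tested.

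**Figure D4:**
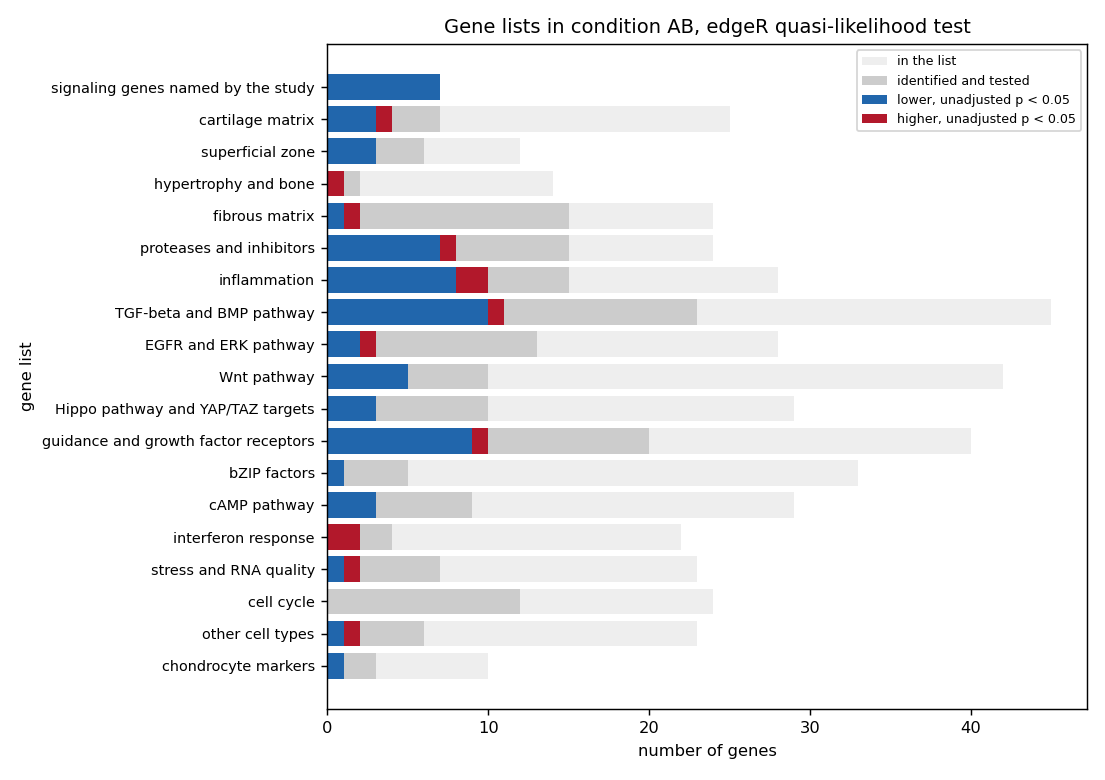
Number of genes (x axis) in each of the 19 lists, with all members in light grey, those identified and tested in dark grey, and those at an unadjusted p under 0.05 in edgeR in blue (lower) and red (higher). Lower members outnumber higher ones in the TGF-β and BMP list (10 and 1), the guidance list (9 and 1) and the inflammation list (8 and 2), and the cell cycle list has neither.

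The log2 ratios differed in size between the calves. With a single condition AB library per shRNA in each calf, response and variation between libraries cannot be told apart. The SD of the log2 ratio over all 12664 genes was 0.40, 0.35, 0.47 and 0.63 in calves 1 to 4, with medians within 0.02 of 0. Across genes, the ratios of calves 3 and 4 had a Pearson correlation of 0.49 and those of calves 1 and 4 of -0.15, the highest and lowest of the 6 pairs. Genes are not independent replicates, and these values only describe the libraries. The 41 genes that fell were called on the values of all 4 calves, calf 4 included. Among them, calf 4 fell most in 28, calf 1 in 9, and calves 2 and 3 in 2 each. The median log2 ratio of these genes was -0.83, -0.82, -0.87 and -1.48 in calves 1 to 4, and that of the 14 genes that rose 0.68, 0.61, 0.95 and 1.43. The reduction of CREB5 itself was -0.94, -0.71, -1.02 and -1.16.

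Condition A shows the same knockdown without TGF-β2, in separate libraries. There, DESeq2 called 79 of 12533 genes (0.63%) and edgeR 0 of 12922 (0%), with 1144 (8.85%) at an unadjusted p under 0.05. CREB5 fell in condition A from 131, 75.4, 83.5 and 111 CPM to 90.6, 47.3, 61.8 and 77.3 CPM, with a log2 fold change of -0.54. The knockdown was larger in condition AB in 4 of 4 calves, by -0.41 on the log2 scale (standard error 0.15, unadjusted p = 0.0185, adjusted p = 0.961 by edgeR's interaction test). Of the 55 genes called in condition AB, 51 had the same sign in condition A, 47 were larger in size in condition AB, and 15 were also called in condition A. Because the 55 genes were chosen by their values in condition AB, larger sizes there follow in part from the choice.

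**Figure D5:**
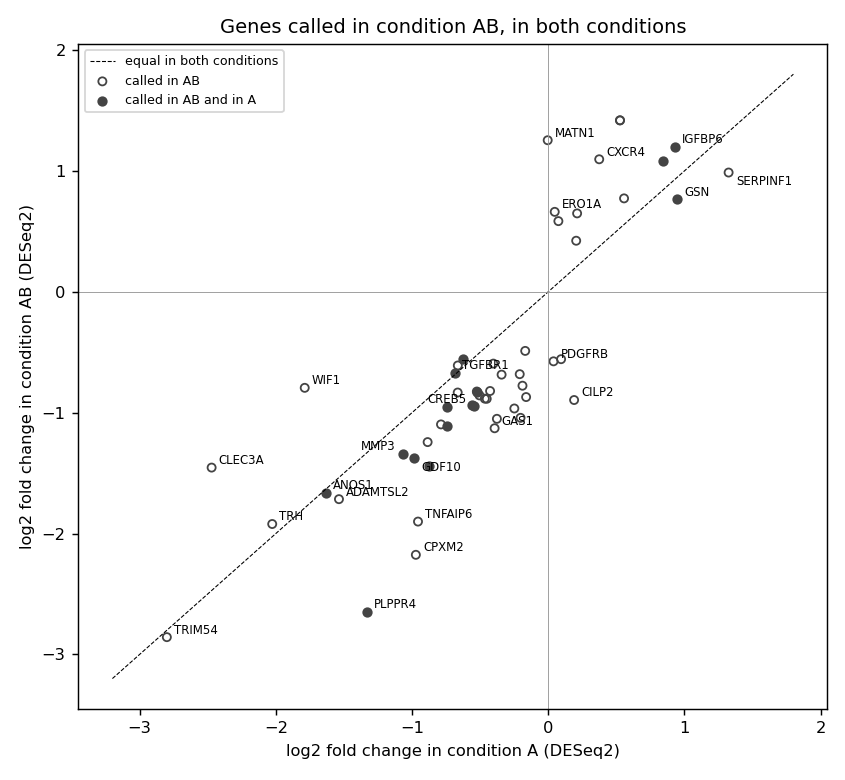
Log2 fold change from DESeq2 in condition A (x axis) and in condition AB (y axis) for the genes called in condition AB, with those also called in condition A filled and the dashed line marking equal values. ENSBTAG00000038155 is left out. MATN1, CILP2 and PDGFRB lie near 0 in condition A (0.00, 0.19 and 0.04), while ANOS1 and TGFBR1 lie on the line.

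The difference between the conditions was tested in all 16 libraries. By edgeR's interaction test 0 of 13372 genes passed (0%, smallest adjusted p = 0.961), and 571 (4.27%) had an unadjusted p under 0.05. Among the 55 genes, 13 had an unadjusted p under 0.05 for the difference, each with the larger effect in condition AB. The 55 were chosen on the same condition AB libraries, so this count and direction follow in part from the choice. They cannot be read against the 4.27%. DESeq2 called 10 of 19454 genes (0.0514%), all without a symbol and with 0 counts in at least 1 library and at most 66 in any, too few for their fitted fold changes to be read. ANOS1 had log2 fold changes of -1.66 in condition AB and -1.63 in condition A, and TGFBR1 -0.68 in both. PDGFRB had -0.59 and 0.05 (unadjusted p of the difference 0.0125), CILP2 -0.91 and 0.19 (0.0264), LRP8 -0.98 and -0.25 (0.0304), and P3H2 0.57 and 0.08 (0.0337). TNFAIP6 and ADAMTSL2 were expressed mainly in condition AB, at 146 and 41.3 CPM with shScramble there against 3.80 and 2.50 CPM in condition A. PRG4 had -0.65 and -0.63. In condition A, unlike condition AB, it passed DESeq2 (adjusted p = 8.77e-07), being lower in 4 of 4 calves, but not edgeR (adjusted p = 0.502). FAT1, FAT4, EPHA3 and HBEGF likewise passed DESeq2 in condition A and not in condition AB (condition A adjusted p = 0.0180, 0.0109, 0.0127 and 0.00364). Conversely, WIF1 passed DESeq2 in condition AB and not in condition A (condition A adjusted p = 0.306), and GDF10 and TGFBR1 passed in both. The shScramble mean of PRG4 was 41323 CPM in condition AB and 12076 in condition A. The CPM of the conditions were scaled separately, so these levels are set side by side without a test.

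The genes with the smallest unadjusted p for the difference were FAM13C (0.000875) and PNKD (0.00103), with adjusted p-values of 0.961 by edgeR. FAM13C had a log2 fold change of 0.83 in condition AB and -0.44 in condition A. PNKD had 21, 18.6, 20.5 and 15.7 CPM with shScramble and 14.4, 15, 12.8 and 13.6 CPM with shCreb5 in condition AB, where the groups did not overlap, with a log2 fold change of -0.44 against 0.24 in condition A. Neither passed DESeq2 in either condition.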

How the data were processed

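RNA from superficial zone articular chondrocytes was sequenced as single-end mRNA libraries. Per the labels and the paper's methods, the authors assigned reads to UMD3.1 Ensembl genes with Salmon in bcbio-nextgen, summed them with tximport, and deposited estimated counts (expected counts) as whole numbers without scaling. Groups and calf numbers came from the sample labels, and every one of the 8 condition AB libraries was used.

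In R 4.3.3, genes passing filterByExpr were normalized with TMM and tested with edgeR 4.0.16 (quasi-likelihood, calf as a block, Benjamini-Hochberg adjustment). DESeq2 1.42.0, with the calf as a covariate and no filter before the fit, was run as a second test, and limma 3.58.1 as an alternative. The threshold was an adjusted p of 0.05. Log2 ratios within calves used a prior count of 2. Standard errors were derived from edgeR's quasi-likelihood test, which draws on the variance of other genes, and are not the plain spread of the log2 ratios between calves. SDs of CPM cover the spread of levels between calves, not that of the paired effect. Intervals from counts alone were not used. Between the shScramble and shCreb5 libraries of a calf, deviations from the group mean correlated at 0.41 to 0.82 across genes, against -0.46 to 0.09 between calves. Libraries with the same number were thus alike, but the same animal and shared handling cannot be told apart by this. Within each shRNA group of condition AB, no library was a copy of that of another calf (chi-square per degree of freedom of at least 78.7). Libraries of different shRNAs, and those of condition A, were not compared in this way. The fits were also run on simulated data, and the outcome is not reported here.

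Symbols came from the paper's supplementary tables, of which the most significant lines were at hand, plus RefSeq. Named genes were CREB5, PRG4 and the study's 7 signaling genes, the 20 lower and 10 higher genes largest in size among those with a symbol called by DESeq2 with an unadjusted edgeR p under 0.05 and 4 of 4 calves, up to 4 members per list by p plus the highest in mean CPM over both groups, and 2 genes for the difference between conditions. Called genes without a symbol were added afterwards. The members and the 19 lists were chosen with earlier results of these data known. RNA integrity and sequencing kit per library were not given in the sources used here. The authors' own fold changes and p-values in their tables were not used.

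Alternatives were DESeq2, limma-voom, robust edgeR, RLE normalization, no filter, a minimum of 10 counts per library, a fit of all 16 libraries, no replicate block, and each calf left out.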

Additional observations from a re-analysis of the deposited data

Results flagged for a closer look

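Among 273 sets of 4 calves tested for the named genes in condition AB (log2 CPM in each group, and log2 ratios), 16 held a calf far from the other 3 by Dixon's criterion, and chance alone would give 13.65. In 6 of them calf 2 stood apart: TGFBR1 with shScramble had a log2 CPM of 6.69 (the other calves from 7.84 to 7.98), TNFAIP6 with shScramble 4.85 (7.27 to 7.66), and HAPLN1 with shScramble 12.52 (10.75 to 10.89). With shCreb5, SERPINF1 had 1.72 in calf 2 (4.59 to 5.08), ROR1 3.91 (5.26 to 5.40) and PDGFRB 2.99 (4.77 to 5.05). Calf 1 stood apart in levels of CLEC3A with shScramble (0.29, the others 3.77 to 4.30), MMP3 with shScramble (6.04, the others 7.38 to 7.56), GSN with shScramble (9.73, the others 8.25 to 8.44) and ADAMTSL2 with shCreb5 (5.26, the others 2.77 to 2.95). With shScramble, DMP1 was apart in calf 4 (4.37, the others 3.16 to 3.33) and HSPA5 in calf 3 (8.95, the others 9.45 to 9.51).

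In the log2 ratio of shCreb5 over shScramble, TRIM54 was at -4.03 in calf 1 (the others from -2.09 to -1.88) and SEMA3D at -0.24 in calf 1 (-0.77 to -0.69). NKD1 was at -1.04 in calf 3 (-0.44 to -0.33) and PDE7A at -1.02 in calf 4 (-0.48 to -0.44).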

How the results depend on the processing

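The count of called genes moved with the test. EdgeR's 0 calls became 55 with DESeq2, 1 with limma-voom, 17 without a filter on low counts (15 lower), 6 in a single fit of all 16 libraries, and 0 to 2 with a calf left out. The 1078 genes at an unadjusted p under 0.05 became 190 without the replicate block and 520 to 2044 with a calf left out (2044 without calf 1, 520 without calf 3, 579 without calf 4). DESeq2's 55 became 5 without the replicate block, 88 in the fit of 16 libraries and 32 to 156 with a calf left out (156 without calf 1, 32 without calf 4). For the difference between conditions, edgeR's 0 became 10 with DESeq2. CREB5 passed the threshold with DESeq2 (-0.95, adjusted p = 1.02e-08), without a filter (-0.96, edgeR adjusted p = 0.0181) and in the fit of 16 libraries (-0.95, edgeR adjusted p = 0.00561). With a calf left out, 4 uncalled genes changed sign: DMP1 (-0.56 to 0.059), SEMA3C (-0.10 to 0.25), BUB1 (-0.27 to 0.026) and FABP4 (-0.18 to 1.2). Over the 97 other named genes, 1157 values were recomputed under 12 alternatives: 1090 kept direction and side of edgeR's threshold, 63 kept direction and passed it, and 4 reversed. The cause of these shifts was not tested. With 4 calves, edgeR had 3 residual degrees of freedom, and genes with few counts, such as TRIM54 and PLPPR4, have the widest errors.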

Other observations

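ENSBTAG00000038155, the gene with 0 counts in every shScramble library of condition AB, also had 0 counts in the 4 shScramble libraries of condition A. With shCreb5 in condition A it had 41, 0, 15 and 0 counts in calves 1 to 4. It was thus found in 6 of the 8 shCreb5 libraries and in 0 of the shScramble libraries, where 0 counts allow up to 3 in each, between 0.138 and 0.204 CPM per library in condition AB.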
